A study of Mus musculus with 6 samples.

Results

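The genes described here encode collagens, laminins and other proteins of the extracellular matrix, together with transcription factors and a receptor of the mesenchyme around the eye. The list holds 41 genes, chosen by function and not by signal, out of 18193 genes with a probe set that maps to that gene alone. Of the 41, 40 were measured, by 84 probe sets, and each is described by its brightest probe set, the one with the highest mean over the 6 arrays. Fbn1 has no probe set of its own in the annotation used and was not analysed here. The tissue was retina isolated from OC1-KO embryos, which lack Onecut1, and from WT embryos at E14, with 3 embryos of each genotype and 1 array per embryo. The labels number the embryos 1 to 3 within each genotype and give a mixed strain background for all 6. Onecut1 encodes a transcription factor, and the OC1-KO mice derive from R1 embryonic stem cells and were later crossed to C57Bl/6, so the loss is not limited to the retina. No treatment was given to either genotype.

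Fibrillar collagens assemble into the tensile fibres of connective tissue, and beaded filament and fibril-associated collagens link or decorate them. Basement membranes are thin sheets of type IV collagen and laminin networks, joined by nidogens and the heparan sulfate proteoglycans perlecan and agrin. In the developing eye a basement membrane, the inner limiting membrane, separates the neural retina from the vitreous, and another lies beneath the pigment epithelium. The periocular mesenchyme is derived from neural crest and mesoderm and gives rise to cornea stroma, sclera, eyelid and vessel walls. Transcription factors of the Foxc, Twist and Prrx families are known for their roles in it. Neural retina itself is an epithelium of neural origin, so genes of interstitial connective tissue are known mainly from the tissue around it.

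Values are log2 of the deposited signal, and a probe set was kept for testing when its mean was over 7 in OC1-KO or in WT, which 20888 of 45037 did. Of the 40 members, 21 were above this level and 19 below it. The median signal of an array lay between 85.0 (OC1-KO 3) and 104.1 (OC1-KO 1) on the linear scale, and any pair of arrays correlated at 0.9179 to 0.9489. All 10 retina marker genes measured were above the filter, and their summed linear signal was 109217 to 127853 in OC1-KO and 96289 to 135957 in WT retinas. Onecut1 gave 9.02, 8.31 and 9.67 in OC1-KO embryos 1 to 3 and 9.25, 8.76 and 9.0 in WT embryos 1 to 3. This probe set did not separate the genotypes. Which part of Onecut1 it covers, inside or outside the deletion, is unknown here, so it is no check of the labels.

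Differences between OC1-KO and WT were small. Of the 21 members above the filter, 17 were higher and 4 were lower in OC1-KO, by differences between -0.12 and 0.67, and 20 of them lay within 0.3 of zero on the log2 scale. The median difference was 0.09 over these 21 members and -0.01 over all probe sets kept. In limma 1 member, Col5a2, was higher at an unadjusted p under 0.05, where 0.369% of all probe sets kept were, and 0 were lower, where 0.637% were. No member and no other probe set had an adjusted p under 0.05 (0% of 20888). With the embryo number as a block, 2 members were higher at an unadjusted p under 0.05, Col5a2 and Col18a1, against 1.57% of all probe sets kept, and 0 were lower, against 2.81%. The standard error (SE) of a difference was 0.14 to 0.59 for members above the filter. It was 0.27 to 1.88 for members below it, whose differences ran from -0.75 to 1.25, and none of those 19 had an unadjusted limma p under 0.05.

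**Figure D1:**
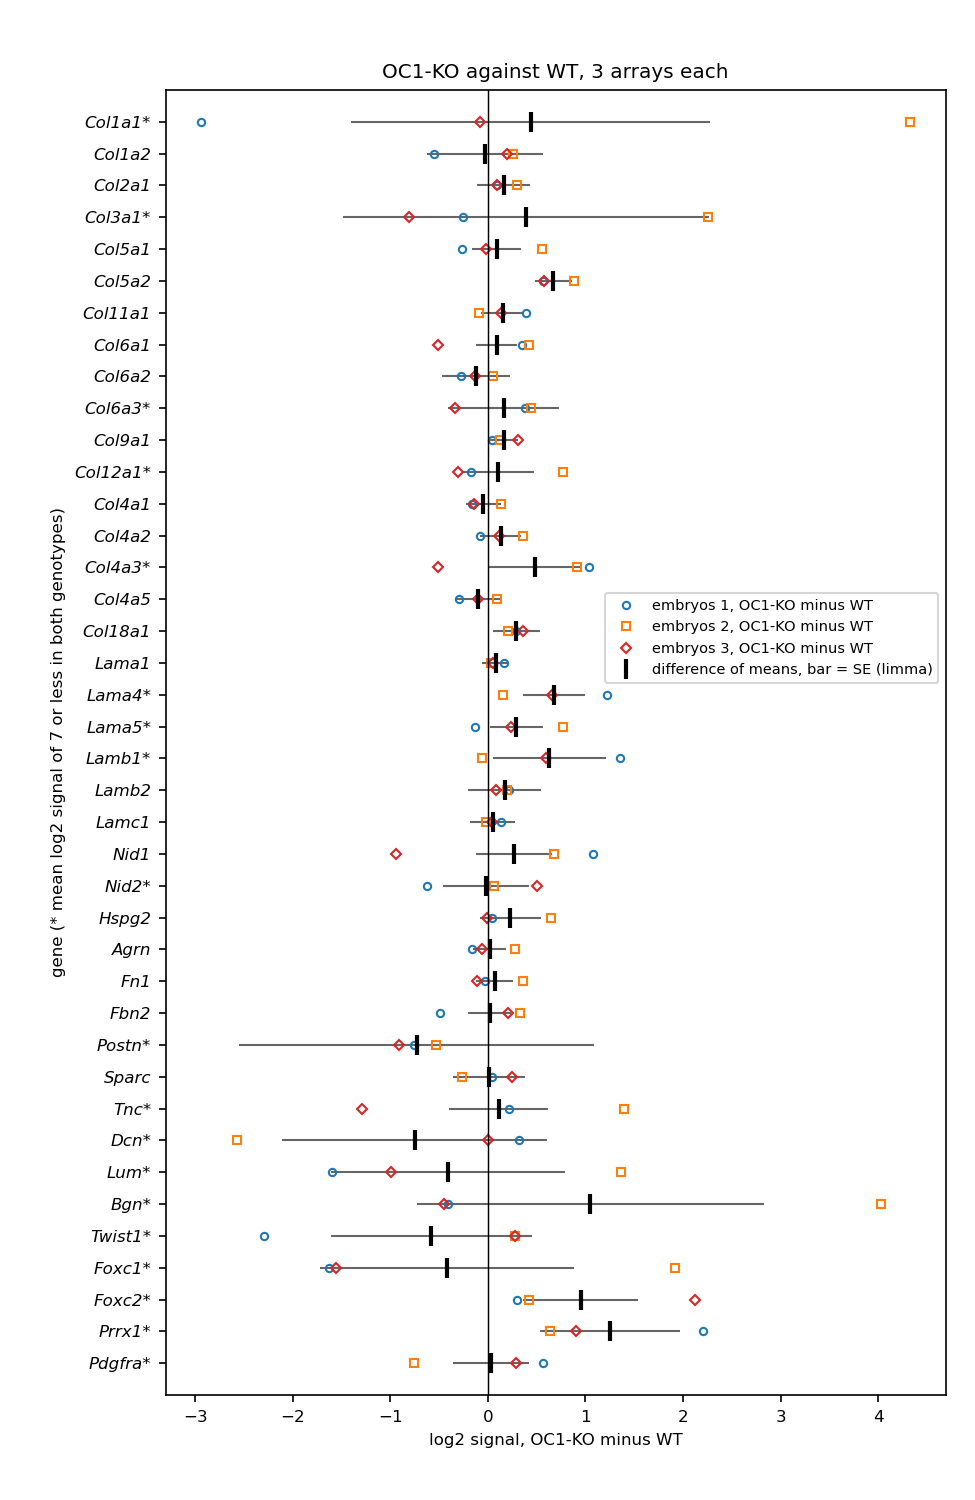
Difference in log2 signal, OC1-KO minus WT, for each of the 40 members on the x axis, with the SE of the limma fit as a bar and the difference within each pair of embryos of the same number as an open symbol. Col5a2 has all 3 pair differences at 0.56 or more, while for Col1a1 the pairs run from -2.94 to 4.33.

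Differences between embryos within a genotype were larger for most members. The sample records of the 2 arrays numbered 3 are numbered apart from those of the other 4. Embryo number cannot be told apart from whatever else set these 2 arrays apart. For 33 of the 40 members, the mean of the embryos numbered 3 differed from the mean of those numbered 1 and 2 by more than OC1-KO differed from WT. The share of all probe sets for which this held was not counted, so this is not shown to be particular to the members. In 23 members both arrays numbered 3, OC1-KO 3 and WT 3, lay above all 4 other arrays, whereas this held for 11.1% of all 45037 probe sets that are no control. Among members above the filter it was 11 of 21, against 14.9% of the probe sets kept. Among members below the filter it was 12 of 19, and the share of all probe sets below the filter was not computed. In 1 member, Agrn, both lay below the other 4, against 23.5% of the probe sets kept. The median difference of embryos numbered 3 from embryos numbered 1 and 2 was 0.52 over the 40 members and -0.06 over all probe sets that are no control. It exceeded 1 in 12 members, of which only Col1a2 was above the filter, and exceeded 2 in 8.

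In a limma F-test of embryo number with genotype in the model, 3 of the 21 members above the filter had an adjusted p under 0.05, against 5.32% of the probe sets kept. These were Lamb2 (adjusted p = 0.0415), Col1a2 (adjusted p = 0.0432) and Col6a2 (adjusted p = 0.0474). At an unadjusted p under 0.05 there were 9 of 21, against 31.9% of the probe sets kept. No member had an adjusted p under 0.05 when no filter was applied, and 0 or 1 members had one when any single array was left out.

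**Figure D2:**
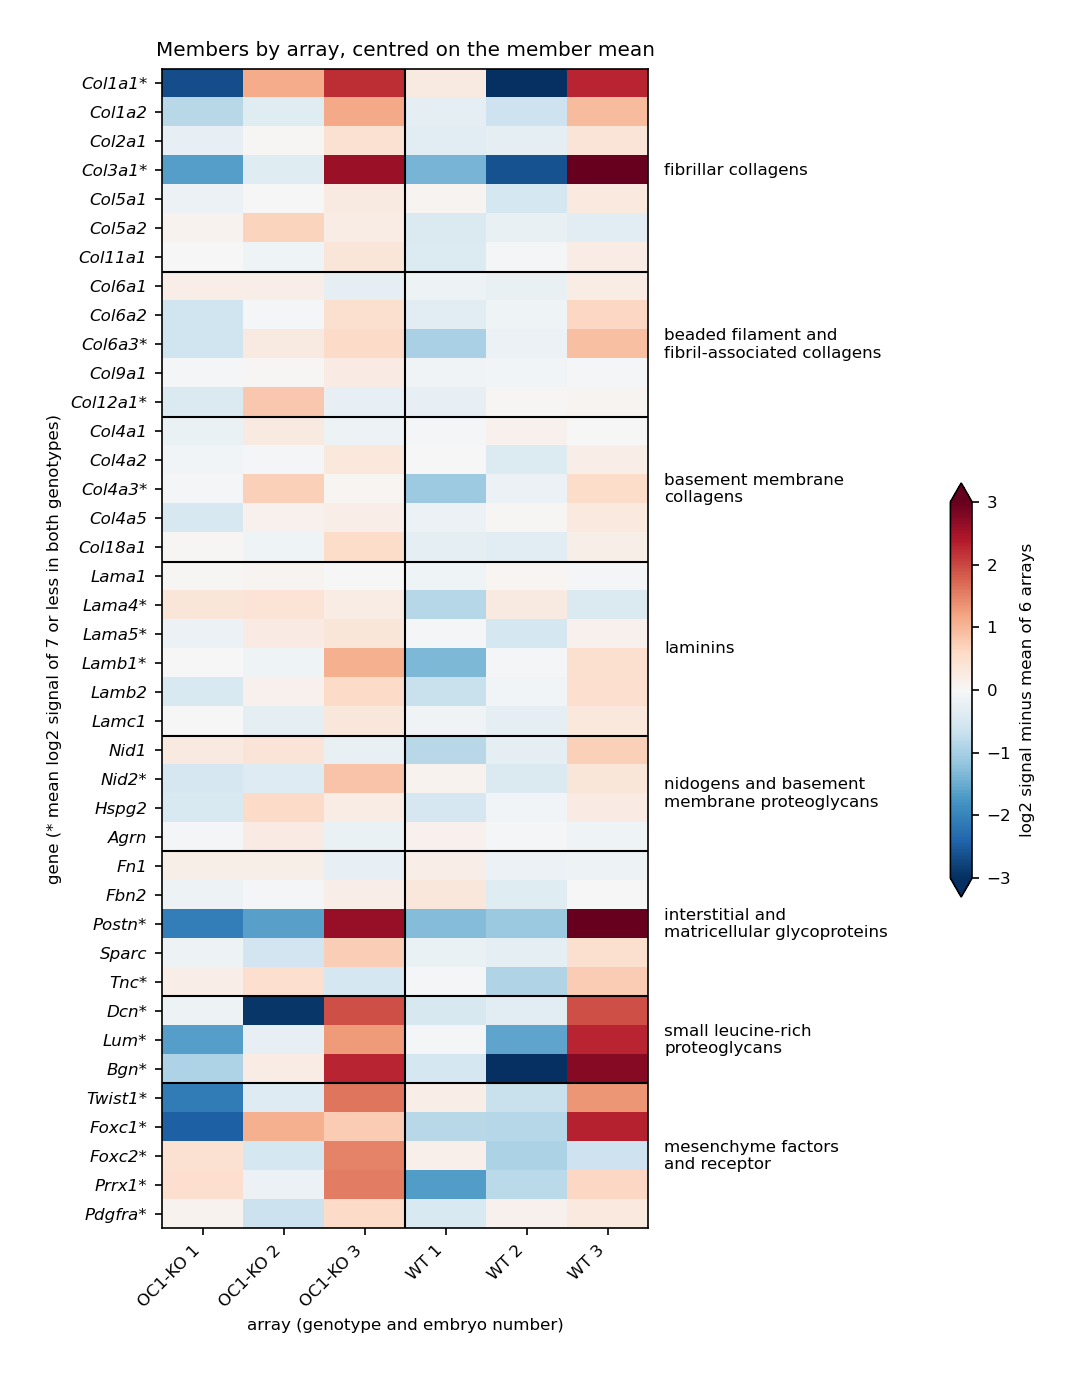
Log2 signal of each of the 40 members in each array minus its mean over the 6 arrays, with OC1-KO arrays left of WT arrays and colour limits at 3 below and 3 above the mean. The columns OC1-KO 3 and WT 3 are red for most fibrillar collagens, for the small leucine-rich proteoglycans and for Postn, and near white for Col9a1, Col4a1 and Lama1.

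Col5a2, a chain of type V collagen, which nucleates collagen I fibrils, was the only member whose genotypes did not overlap on its brightest probe set. Among all probe sets kept, 1.7% had no overlap with OC1-KO higher and 1.86% with OC1-KO lower. No direction was set in advance, and 1 of the 21 members above the filter is not shown to exceed these shares. The signal of Col5a2 was 9.69, 10.24 and 9.80 in OC1-KO embryos 1 to 3, against 9.14, 9.36 and 9.23 in WT embryos 1 to 3. The OC1-KO arrays were thus all above the WT arrays, and arrays numbered 3 did not stand apart. The means were 9.91 ± 0.29 in OC1-KO and 9.24 ± 0.11 in WT (SD, n = 3 each). OC1-KO was thus 0.67 higher (SE 0.19), or 1.59-fold, with an unadjusted limma p of 0.0092 and an adjusted p of 1.00. The exact two-sided permutation test gave p = 0.1, the smallest that 3 against 3 allows. Pairs of embryos 1 to 3 differed by 0.56, 0.88 and 0.57. A second, dimmer probe set of Col5a2 gave 9.23, 9.67 and 9.40 in OC1-KO embryos and 8.80, 9.28 and 9.05 in WT embryos. Its difference was 0.39 (SE 0.19), smaller than on the brighter probe set and with overlapping genotypes, with an unadjusted limma p of 0.0817, or 0.0129 with the block. Col5a2 lies on chromosome 1 (GRCm38.p6, chr1:45374331-45503282), 24624 bases from its neighbour Col3a1.

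In the other fibrillar collagens the genotypes overlapped. Col2a1, the main collagen of cartilage and vitreous, gave 8.97, 9.25 and 9.69 in OC1-KO embryos and 8.88, 8.95 and 9.61 in WT embryos, higher in OC1-KO in 3 of 3 pairs by 0.09 to 0.30 with overlapping genotypes (difference 0.16, SE 0.27). Col1a2, the second chain of type I collagen, gave 8.34, 8.82 and 10.31 in OC1-KO embryos and 8.89, 8.56 and 10.11 in WT embryos. Here the arrays numbered 3 stood 1.55 above the others, or 2.94-fold, and the genotypes differed by -0.03 (SE 0.59). A second probe set of Col1a2 above the filter showed the same order of embryos, with a difference of 1.40.

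Col1a1, the partner chain, was below the filter and gave 2.02, 5.79 and 6.90 in OC1-KO embryos and 4.96, 1.46 and 6.98 in WT embryos. Col3a1, the chain of type III collagen of vessels and loose connective tissue, gave 4.84, 6.14 and 9.09 in OC1-KO embryos and 5.10, 3.88 and 9.90 in WT embryos. Both genes were highest in the 2 arrays numbered 3, by 3.38 for Col1a1 and 4.51 for Col3a1. These sizes are rough, since their 4 other arrays scattered over several log2 units at low signal. Col5a1 and Col11a1, minor chains of the same fibrils, were above the filter and higher in both arrays numbered 3 by 0.42 and 0.44, with genotype differences of 0.09 (SE 0.25) and 0.15 (SE 0.22). On another probe set of Col5a1 above the filter the embryo difference was 0.16, and the arrays numbered 3 were not both highest. In all, 6 of the 7 fibrillar collagens were highest in both arrays numbered 3 on their brightest probe set, Col5a2 being the exception.

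**Figure D3:**
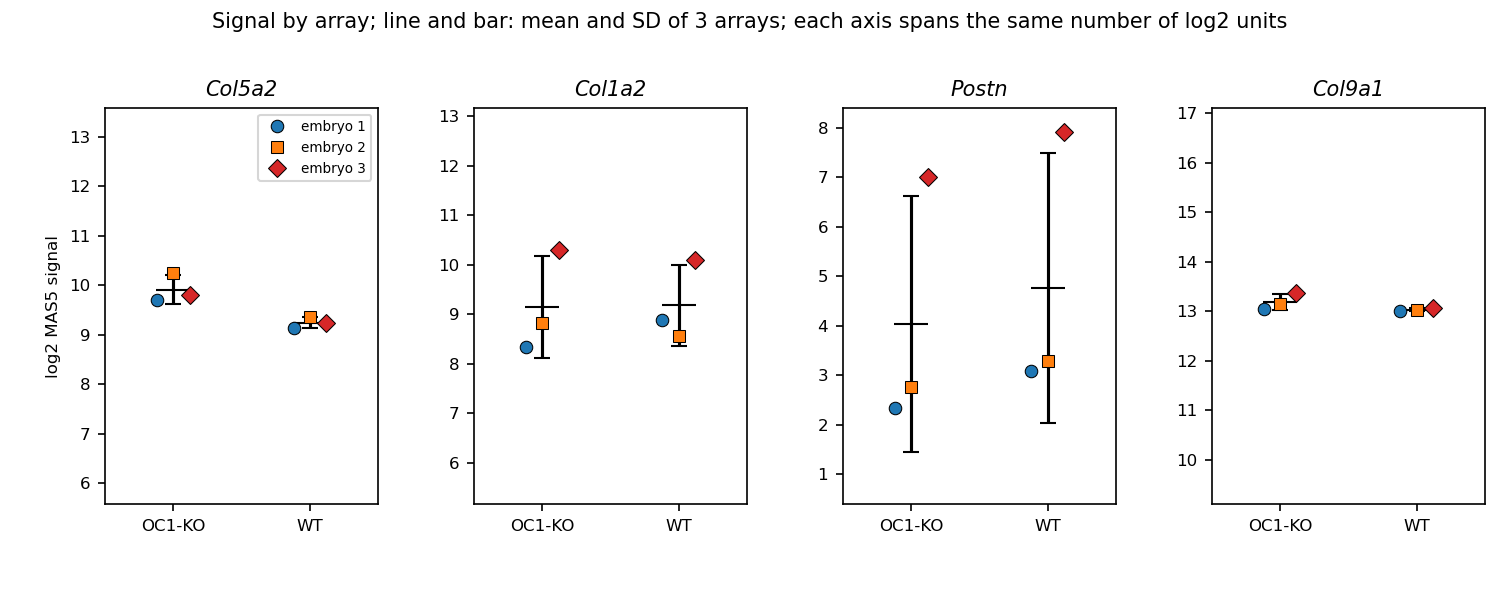
Log2 signal of Col5a2, Col1a2, Postn and Col9a1 in each array, with OC1-KO left of WT, one symbol per embryo number and a line and bar for mean and SD (n = 3). All panels span the same number of log2 units. The 3 OC1-KO points of Col5a2 lie above its WT points, and the points of embryo 3 lie apart for Col1a2 and Postn in both genotypes.

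Among the beaded filament and fibril-associated collagens, Col9a1 was the brightest member, and it is known as a fibril-associated collagen of vitreous and cartilage. It gave 13.04, 13.14 and 13.36 in OC1-KO embryos and 13.00, 13.02 and 13.06 in WT embryos. All 6 values lay within 0.37, and the genotypes differed by 0.16 (SE 0.15), higher in OC1-KO in 3 of 3 pairs by 0.04 to 0.31. Its second probe set, also above the filter, was less even, with 9.76, 10.14 and 10.69 in OC1-KO embryos and 9.59, 9.77 and 10.73 in WT embryos, so both arrays numbered 3 were highest on it. Col6a1, a chain of type VI collagen, gave 9.24, 9.25 and 8.77 in OC1-KO embryos and 8.89, 8.82 and 9.27 in WT embryos, with a difference of 0.09 (SE 0.21) and no common order of embryos. Col6a2, its partner chain, gave 7.46, 7.99 and 8.54 in OC1-KO embryos and 7.74, 7.94 and 8.68 in WT embryos, highest in both arrays numbered 3 by 0.83 and different between genotypes by -0.12 (SE 0.35). Its second probe set was highest only in WT 3. Below the filter, Col6a3 was higher in both arrays numbered 3 by 1.11, and Col12a1 was not (-0.12).

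The chains of type IV collagen, the network of basement membranes, varied little between genotypes. Col4a1 gave 10.88, 11.34 and 10.91 in OC1-KO embryos and 11.04, 11.21 and 11.05 in WT embryos, and Col4a5 gave 10.28, 10.88 and 10.95 in OC1-KO embryos and 10.58, 10.79 and 11.05 in WT embryos. The genotypes overlapped for both, with differences of -0.05 (SE 0.18) and -0.10 (SE 0.23). Col4a2, the partner of Col4a1 in the common heterotrimer, differed by 0.13 (SE 0.21). Both arrays numbered 3 were above the others for Col4a2 by 0.38 and for Col4a5 by 0.37, and not for Col4a1 (-0.13), whose second probe set was 0.42 higher there. On the second probe set of Col4a5 the embryo difference was 0.05, and the arrays numbered 3 were not both highest. Col4a1 (chr8:11198423-11312889, reverse strand) and Col4a2 (chr8:11312805-11449287, forward strand) are transcribed away from each other, and their GRCm38.p6 gene models share 85 bases.

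Col18a1, a basement membrane collagen whose C-terminal fragment is endostatin, gave 10.12, 9.95 and 10.63 in OC1-KO embryos and 9.83, 9.74 and 10.27 in WT embryos. It was higher in OC1-KO in 3 of 3 pairs, by 0.29, 0.21 and 0.36, with overlapping genotypes. The difference was 0.29 (SE 0.24), with an unadjusted limma p of 0.268, or 0.0438 with the embryo number as a block. On its second probe set the genotypes differed by -0.04. It was 0.54 higher in embryos numbered 3. Col4a3, a chain of the kidney filter's basement membrane, was below the filter at 3.76 ± 0.42 in OC1-KO and 3.28 ± 0.83 in WT (SD, n = 3 each).

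Laminins are heterotrimers of an alpha, a beta and a gamma chain. Lama1, the alpha chain of laminin-111, was the steadiest member. It gave 8.56, 8.60 and 8.50 in OC1-KO embryos and 8.39, 8.57 and 8.46 in WT embryos, within 0.21 over the 6 arrays, and its genotypes differed by 0.08 (SE 0.14). Lamc1, the common gamma chain, gave 8.46, 8.16 and 8.79 in OC1-KO embryos and 8.33, 8.18 and 8.75 in WT embryos, and pairs of the same number agreed within 0.13. Lamb2, a beta chain found in the retina and at synapses, gave 7.62, 8.19 and 8.65 in OC1-KO embryos and 7.40, 7.99 and 8.57 in WT embryos. The order of the embryos was the same in both genotypes, with those numbered 3 higher by 0.81, and OC1-KO was higher in 3 of 3 pairs by 0.08 to 0.22 (difference 0.17, SE 0.37). Below the filter, Lama4, an alpha chain of vessel walls and muscle, gave 4.32, 4.37 and 4.18 in OC1-KO embryos and 3.10, 4.22 and 3.51 in WT embryos. Its difference of 0.68 (SE 0.32) had the smallest unadjusted limma p of the members below the filter, 0.0839, at a signal where its second probe set went the other way (-0.63). Lama5 and Lamb1 were also below the filter, with differences of 0.29 (SE 0.27) and 0.63 (SE 0.58), and Lamb1 was 1.15 higher in embryos numbered 3.

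Agrn encodes agrin, a heparan sulfate proteoglycan of basement membranes that also clusters acetylcholine receptors at the neuromuscular junction. It gave 11.94, 12.22 and 11.78 in OC1-KO embryos and 12.10, 11.94 and 11.85 in WT embryos, lowest in the 2 arrays numbered 3 by 0.23, and the genotypes differed by 0.02 (SE 0.17). Hspg2, which encodes perlecan, gave 8.12, 9.16 and 8.81 in OC1-KO embryos and 8.08, 8.51 and 8.82 in WT embryos (difference 0.23, SE 0.31). In both genotypes embryo 1 was the lowest. Nid1, the linker between laminin and type IV collagen, gave 7.51, 7.63 and 7.02 in OC1-KO embryos and 6.43, 6.96 and 7.96 in WT embryos. Its pairs differed by 1.08, 0.68 and -0.94, so the third pair ran against the others, and the difference of 0.27 (SE 0.39) became 0.88 (unadjusted limma p of 0.0143) among embryos 1 and 2 alone, 0.69 (limma p of 0.0441) without WT 3 and -0.07 without WT 1. Together with Col5a2, this made 2 members with an unadjusted p under 0.05 among embryos 1 and 2 alone, both higher in OC1-KO. In that fit 307 of all probe sets kept were higher and 170 were lower at this level, and their share was not computed. Nid2, the related nidogen, was below the filter at 5.61 ± 0.75 in OC1-KO and 5.63 ± 0.41 in WT (SD, n = 3 each).

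Sparc, a collagen-binding matricellular protein, gave 11.69, 11.28 and 12.59 in OC1-KO embryos and 11.65, 11.55 and 12.34 in WT embryos. The arrays numbered 3 were 0.93 above the others, and the genotypes differed by 0.01 (SE 0.37). Its second probe set above the filter repeated this order, with a difference of 0.59. Fbn2, a fibrillin of elastic microfibrils, gave 11.25, 11.36 and 11.61 in OC1-KO embryos and 11.75, 11.03 and 11.40 in WT embryos, with a genotype difference of 0.02 (SE 0.22). On that probe set the embryos had no common order, but on the second one both arrays numbered 3 were highest, by 1.00. Fn1, the fibronectin gene, gave 11.52, 11.52 and 11.09 in OC1-KO embryos and 11.54, 11.17 and 11.19 in WT embryos, a difference of 0.07 (SE 0.19). It was 0.30 lower on average in embryos numbered 3, although WT 2 was as low as WT 3. Tnc, which encodes tenascin-C, was below the filter at 5.45 ± 0.52 in OC1-KO and 5.34 ± 0.84 in WT (SD, n = 3 each).

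Postn, which encodes periostin, a matricellular protein of periosteum, heart valves and other connective tissue, came near or above the level of the filter in the 2 arrays numbered 3 only. It gave 2.33, 2.76 and 7.0 in OC1-KO embryos and 3.09, 3.29 and 7.91 in WT embryos. Embryos numbered 3 were 4.58 higher. The 4 other arrays were all at 3.29 or less, far below the filter and not shown to be above background, so the size of that difference is only rough. Within pairs, OC1-KO was lower in 3 of 3, by differences of -0.76, -0.53 and -0.91. The genotype difference of -0.73 had an SE of 1.82 and an unadjusted limma p of 0.702, but a p of 0.0162 with the embryo number as a block in the fit without a filter. Postn, at chr3:54359267-54391041, has 1 probe set, so there is no second reading, and 2 of its 3 pairs lie at signals far below the filter.

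The small leucine-rich proteoglycans Dcn (decorin), Lum (lumican) and Bgn (biglycan) bind collagen fibrils and set their spacing. All 3 were below the filter, and all 3 were highest in both arrays numbered 3. Dcn gave 5.75, 2.99 and 7.83 in OC1-KO embryos and 5.43, 5.56 and 7.84 in WT embryos. Lum, known for its part in the clear cornea stroma, gave 4.41, 5.83 and 7.35 in OC1-KO embryos and 6.00, 4.48 and 8.35 in WT embryos. Bgn gave 4.13, 5.28 and 7.33 in OC1-KO embryos and 4.53, 1.25 and 7.79 in WT embryos. The embryos numbered 3 stood above the others by 2.90 for Dcn, 2.67 for Lum and 3.76 for Bgn, and the summed linear signal of the 3 genes was 93, 104 and 553 in OC1-KO embryos and 131, 72 and 775 in WT embryos. Their genotype differences were -0.75 (SE 1.36), -0.41 (SE 1.20) and 1.05 (SE 1.78), all smaller than their errors. A second probe set of Dcn, at 3.34 or less in every array and far below the filter, went the other way. Its difference was 1.54 (SE 0.53), with an unadjusted limma p of 0.0298 and no overlap of the genotypes. Dcn and Lum are neighbours on chromosome 10, 47337 bases apart.

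All 5 mesenchyme factors and receptors were below the filter. Foxc1, a forkhead factor required for the anterior segment of the eye, gave 1.04, 4.57 and 4.25 in OC1-KO embryos and 2.67, 2.65 and 5.81 in WT embryos, the widest scatter of the group. Twist1, a basic helix-loop-helix factor of mesenchyme, gave 2.27, 3.98 and 5.97 in OC1-KO embryos and 4.57, 3.70 and 5.69 in WT embryos. Prrx1, a paired-related homeobox factor, gave 5.99, 5.31 and 7.0 in OC1-KO embryos and 3.79, 4.67 and 6.09 in WT embryos. Arrays numbered 3 were highest in their genotype for Twist1 and Prrx1, by 2.20 and 1.60 against the embryos numbered 1 and 2. Prrx1 was higher in OC1-KO in 3 of 3 pairs, by 2.20, 0.64 and 0.90, with an unadjusted limma p of 0.135, or 0.0444 with the block in the fit without a filter. Its 5 other probe sets, all dimmer, did not share a sign. Pdgfra, the receptor for platelet-derived growth factor on mesenchymal cells, averaged 6.81 ± 0.61 in OC1-KO and 6.79 ± 0.38 in WT (SD, n = 3 each). Foxc2 averaged 2.65 ± 1.01 in OC1-KO and 1.70 ± 0.57 in WT (SD, n = 3 each).

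Marker genes of tissues next to the retina also differed by embryo number. Lens markers were highest in both arrays numbered 3 in 10 of 14 genes, and their summed linear signal was 341, 526 and 11772 in OC1-KO embryos and 397, 342 and 22333 in WT embryos. Extraocular muscle markers did so in 9 of 10 genes with a summed signal of 321, 506 and 2033 in OC1-KO embryos and 319, 406 and 2582 in WT embryos. Surface ectoderm and cornea markers did so in 9 of 10, with 554, 740 and 1424 in OC1-KO embryos and 672, 703 and 1316 in WT embryos. Pigment epithelium markers did so in 7 of 10, with 805, 954 and 2465 in OC1-KO embryos and 563, 483 and 1131 in WT embryos. Red blood cell markers did so in 5 of 8, with 156, 832 and 24049 in OC1-KO embryos and 425, 192 and 16669 in WT embryos. The counts were 3 of 6 for pericyte, 4 of 10 for macrophage, 1 of 10 for endothelial, 0 of 6 for cartilage and 2 of 10 for retina markers. Over all probe sets that are no control, the share highest in both arrays numbered 3 was 11.1%. For the brightest gene of each list, embryos numbered 3 differed from the others by 7.33 (Hbb-y, red blood cells), 7.26 (Cryba1, lens), 3.72 (Actc1, muscle), 1.78 (Pmel, pigment epithelium), 0.46 (Epcam, surface ectoderm), 0.23 (Notch3, pericytes), 0.06 (Csf1r, macrophages), -0.02 (Ccnd1, retina), -0.06 (Sox9, cartilage) and -0.58 (Kdr, endothelium). In muscle, Actc1, a heart and fetal muscle actin, gave 4.78, 6.59 and 9.17 in OC1-KO embryos and 5.33, 5.65 and 9.44 in WT embryos. The part of these tissues in the signals of Postn, Col3a1, Col1a1, Dcn, Lum and Bgn was not tested, and in bulk tissue fewer cells of a type and less RNA per cell cannot be told apart.

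By genotype, 9 of 10 pigment epithelium markers were higher in OC1-KO, with a median difference of 0.72. The median was 0.6 for pericyte, 0.5 for cartilage, 0.32 for lens, 0.12 for macrophage, 0.1 for red blood cell and 0.06 for retina markers. It was -0.01 for muscle, -0.08 for surface ectoderm and -0.1 for endothelial markers. The share of all probe sets that were higher was not counted, so the 9 of 10 is not shown to be particular. Only 4 of the 10 pigment epithelium markers were above the filter. Of these 4, 0 had an unadjusted limma p under 0.05, against 0.369% of the probe sets kept that were higher. With the block 2 had one, both higher in OC1-KO, against 1.57%. Pmel, a melanosome protein, gave 7.61, 7.80 and 9.68 in OC1-KO embryos and 6.98, 5.90 and 8.03 in WT embryos. In both genotypes the array numbered 3 was the highest. The part of pigment epithelium in the Col5a2 and Col18a1 signals was not tested.

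**Figure D4:**
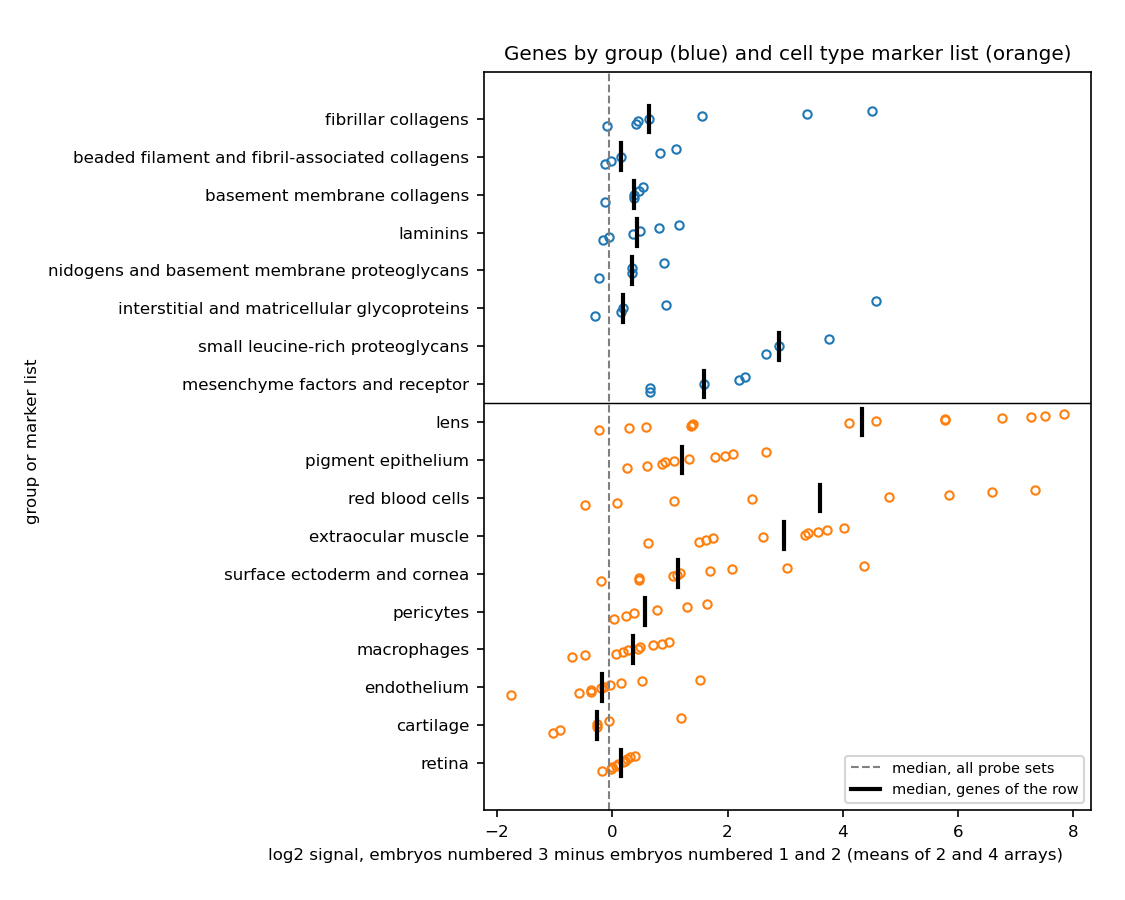
Mean log2 signal of the embryos numbered 3 minus that of the embryos numbered 1 and 2, with 1 circle per gene, for the 8 groups of matrix and mesenchyme genes (blue) and 10 lists of cell type markers (orange). Black bars are medians, and the dashed line is the median of all probe sets that are no control, -0.06. Small leucine-rich proteoglycans lie at 2.67 to 3.76, lens, red blood cell and muscle markers reach beyond them or overlap them, and retina markers lie between -0.17 and 0.39.

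Genes that act with these matrix proteins were taken in 6 further lists, 99 genes measured in all. By genotype none had an adjusted limma p under 0.05. Of the 48 above the filter, 2 had an unadjusted limma p under 0.05, both lower in OC1-KO, against 0.637% of the probe sets kept. The number higher was 0, against 0.369%. Of the 51 below it, 5 did, with Lamb3 and Alx4 higher in OC1-KO and Lama3, Alx1 and Cnn1 lower, at log2 signals of 6.04 or less in every array. In that fit without a filter, 611 of all 45037 probe sets were higher and 694 were lower at this level. Itga5, the alpha subunit of the main fibronectin receptor, gave 6.51, 6.77 and 6.49 in OC1-KO embryos and 7.17, 7.08 and 7.05 in WT embryos. The genotypes did not overlap, with OC1-KO lower, as in 1.86% of the probe sets kept, and the difference was -0.51 (SE 0.15), with an unadjusted limma p of 0.0110. Ccn2, a matricellular target of TGF-beta signalling, gave 7.11, 6.82 and 6.87 in OC1-KO embryos and 7.49, 7.86 and 7.23 in WT embryos, again without overlap, with a difference of -0.59 (SE 0.20) and an unadjusted limma p of 0.0221. Both genes sat close to the filter. Sdc4, a cell surface proteoglycan, gave 8.34, 8.13 and 8.60 in OC1-KO embryos and 8.11, 7.86 and 8.24 in WT embryos, higher by 0.28 (SE 0.19), with an unadjusted limma p of 0.174, or 0.0457 with the block.

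In the other lists no gene above the filter had an unadjusted limma p under 0.05. Enzymes and chaperones of collagen folding and crosslinking had 11 of 17 genes higher in OC1-KO and a median difference of 0.06. Bmp1, the procollagen C-proteinase, differed by 0.24 (SE 0.22) and Ppib, the prolyl isomerase cyclophilin B, by 0.18 (SE 0.18). Of 23 other collagen and laminin chains 12 were higher and 10 were lower, with 4 above the filter, and among these Ntn4 differed by -0.12 (SE 0.16) and Col9a2 by 0.19 (SE 0.49). Matrix proteases and their inhibitors had 5 of 11 higher, with Mmp2, a gelatinase, at 0.20 (SE 0.20) and Adamts1, a proteoglycan-cleaving protease, at 0.12 (SE 0.15). Tgfb3, one of the ligands, differed by 0.11 (SE 0.20).

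Another 18 periocular mesenchyme and fibroblast genes were examined in the same way. Of these, 9 were highest in both arrays numbered 3, with a median difference of 0.74 between embryos numbered 3 and the others. Only 3 were above the filter. Eya2, a transcriptional coactivator, gave 8.14, 9.09 and 9.57 in OC1-KO embryos and 9.00, 8.97 and 9.77 in WT embryos. Snai2, a zinc finger factor of neural crest and mesenchyme, gave 6.52, 7.21 and 8.36 in OC1-KO embryos and 7.43, 7.75 and 7.99 in WT embryos. Both were highest in OC1-KO 3 and WT 3, and their genotype differences were -0.31 (SE 0.40) and -0.36 (SE 0.44). In the other lists, 5 of 17 folding genes, 4 of 21 matrix receptors, 2 of 11 proteases and inhibitors, 3 of 9 TGF-beta response genes and 5 of 23 other chains were highest in both arrays numbered 3. The share over all probe sets that are no control was 11.1%.

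Probe sets of 1 gene did not always show the same pattern. Of 44 further probe sets of the members, 11 were above the filter. Of these 6 were highest in both arrays numbered 3, 3 of them for genes whose brightest probe set was not (Col9a1, Col4a1 and Fbn2). The reverse held for Col5a1, Col6a2 and Col4a5, where the brightest probe set had this order and the other above the filter did not. On the further probe set of Fn1 both arrays numbered 3 were lowest, with a difference of -0.74. The sign of the genotype difference was the same as on the brightest probe set in 6 of the 11.

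The start regions of 26 of the 40 members are in the RefSeq promoter table (GRCm38.p6), in 32 windows. The 250 bases before a start are printed for 3 genes that stand for the patterns above: Postn, highest in the arrays numbered 3, Col1a2 with the largest embryo difference among members above the filter, and Col9a1, the brightest and steady on that probe set. Capitals mark matches on either strand to the TATA box TATAAA, to the CCAAT box of that spelling, or to the GC box GGGCGG. No match to one motif overlaps a match to another in these windows, and overlapping matches to the same motif were each counted.
Postn (chr3:54360857-54361106, forward strand): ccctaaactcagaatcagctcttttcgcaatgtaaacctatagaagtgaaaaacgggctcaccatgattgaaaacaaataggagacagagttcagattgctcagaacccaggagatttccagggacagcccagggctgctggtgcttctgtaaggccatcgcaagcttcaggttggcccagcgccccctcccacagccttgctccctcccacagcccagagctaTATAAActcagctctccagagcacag
Col1a2 (chr6:4505368-4505617, forward strand): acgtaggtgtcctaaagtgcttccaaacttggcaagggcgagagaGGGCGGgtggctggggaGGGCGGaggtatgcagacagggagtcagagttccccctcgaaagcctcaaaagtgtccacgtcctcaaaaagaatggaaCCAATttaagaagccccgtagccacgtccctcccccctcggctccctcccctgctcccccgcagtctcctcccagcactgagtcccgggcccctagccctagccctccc
Col9a1 (chr1:24194953-24195202, forward strand): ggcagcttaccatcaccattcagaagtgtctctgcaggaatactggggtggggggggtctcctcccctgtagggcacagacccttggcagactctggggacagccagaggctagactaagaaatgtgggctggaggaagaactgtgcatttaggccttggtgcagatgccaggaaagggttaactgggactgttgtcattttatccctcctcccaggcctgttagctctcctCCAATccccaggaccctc
The Postn window holds 1 TATA box near its end, the Col1a2 window holds 1 CCAAT box and 2 GC boxes, and the Col9a1 window holds 1 CCAAT box. For Postn and Col9a1 the printed window precedes a start inside the gene model (chr3:54359267-54391041 and chr1:24177589-24252738). The windows at the first start of each, chr3:54359017-54359266 and chr1:24177360-24177609, are not printed and hold no match to any of the 3. The TATA box is in 5 of the 32 member windows and in 12.4% of all 32851 windows of this length, the CCAAT box in 11 and 33.8%, and the GC box in 19 and 32.7%. Split by embryo pattern, 3 of 20 windows of members highest in both arrays numbered 3 hold a TATA box and 2 of the 12 others do. These 2 are overlapping windows of Tnc that share 1 TATA box and 1 GC box, so the window counts hold each of these more than once. For the CCAAT box it is 7 of 20 and 4 of 12, and for the GC box 11 of 20 and 8 of 12. These are counts of letters and not of binding sites.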

How the data were processed

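RNA from isolated retinas was hybridised to Affymetrix mouse genome arrays. The authors deposited MAS5 intensity, a linear signal per probe set after background correction and scaling of each array to a 2% trimmed mean of 500, and no detection calls were used. The labels give the stage as E14 and the article as E14.5. Log2 was taken here without further scaling, 64 control probe sets were left out of 45101, and the methods' filter kept probe sets with a mean log2 signal over 7 in either genotype. Of 45037 probe sets, 34945 have 1 gene symbol, 932 several and 9160 none, and 34741 were matched to RefSeq genes (GRCm38.p6) by Entrez ID.

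Genotypes were compared with limma 3.58.1 in R 4.3.3 (lmFit, eBayes, two-sided), and p-values were adjusted by Benjamini-Hochberg over all probe sets kept. Embryo number was tested by a moderated F-test with genotype in the model. Members below the filter were fitted with all probe sets that are no control. Single genes had an exact permutation test. The fits were tested on simulated data. Replicates are separate embryos.

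The arrays pair by embryo number: deviations from the genotype means correlate at 0.51, 0.57 and 0.67 between arrays of the same number, and at -0.44 to -0.04 otherwise. Centring on the genotype means forces the values between different numbers to be negative on balance, so they are no separate support. The labels state no such pairs, so blocked values rest on this check, made in the same data.

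The members, gene lists, tests and alternatives were chosen with earlier results of these data known. Values in each array are given for the brightest members above the filter in each group, the smallest limma p in each direction, the largest ranges, 2 genes of each pathway list and the brightest marker of each cell type. Col1a2, Col6a2, Col18a1, Lamb2, Nid1, Fn1 and Lum were described after their values were seen. Listed genes without a probe set of their own were not analysed here.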

Additional observations from a re-analysis of the deposited data

How the results depend on the processing

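Col5a2 was higher in OC1-KO with an unadjusted p under 0.05 under each alternative that gave a p, by 0.51 to 0.78, and its mean over 2 probe sets was 0.53 higher. With quantile normalization, 16 added to the signal, embryos 1 and 2 alone and each array left out in turn, 5 of the 21 members above the filter and 6 of the 19 below it kept the sign of their genotype difference throughout. Members with an unadjusted p under 0.05 were 1 higher and 0 lower, and 2 higher among embryos 1 and 2 alone and with the replicate block. With no filter and the replicate block, an alternative added after seeing the data, 2 were higher (Col5a2 and Prrx1) and 1 was lower (Postn). The share of all probe sets called in that fit was not counted, so these calls are not shown to be particular to the members. Leaving out 1 array gave 1 to 2 higher, the second being Nid1 without WT 3. Over all probe sets kept, 77 were higher and 133 lower. There were 307 higher among embryos 1 and 2 alone, 48 higher and 69 lower with a filter over 8, 69 lower with an intensity trend, 611 higher and 694 lower with no filter, 327 higher and 586 lower with the replicate block, and 160 higher by the methods' t-test. Leaving out 1 array gave 61 (without WT 1) to 289 (without OC1-KO 3) higher and 95 (without WT 2) to 253 (without OC1-KO 1) lower. No probe set had an adjusted p under 0.05 in any of these fits.

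For embryo number, 3 members and 1111 probe sets had an adjusted p under 0.05. There were 2369 probe sets without genotype in the model, 0 members and 2 probe sets among embryos 1 and 2 alone, 6 and 2308 with a filter over 8, 7 and 4106 with an intensity trend, and 0 and 0 with no filter. With no filter and 16 added to the signal, added after seeing the data, there were 0 and 0. Leaving out 1 array gave 0 to 1 members and 0 (without OC1-KO 1) to 1544 (without WT 1) probe sets. These calls thus turned on the filter and on single arrays, and the cause was not tested. The count of members highest in both arrays numbered 3 was 23, and 24 with quantile normalization, 23 with array medians set equal (added after seeing the data) and 23 to 28 when 1 array was left out. Signal over background limits the 19 members below the filter, where a difference of 1 between dim arrays is common.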
